A study of Mus musculus with 47 samples.

Results

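The collagen genes of the mouse were followed in liver, lung and brain of embryos that carry point mutations of Daxx. They were taken as every gene whose symbol has the form Col, number, a, number, which gave 44 of the 20456 genes in the count table. The 44 genes comprised 11 fibrillar collagens, 6 basement membrane collagens (Col4a1 to Col4a6) and 27 others. All 44 were protein coding, and all passed the filter on low counts that left 16892 genes for the tests. The RNA came from 17 embryos of 8 litters at E18.5, in 47 libraries. The strain is labelled C57BL/6, and the founders came from C57BL/6N zygotes and were backcrossed to C57BL/6J. S226A embryos were homozygous for Daxx S226A, an allele that removes the interaction of Daxx with histone H3.3, and Y130A embryos were homozygous for Daxx Y130A, which removes its interaction with Atrx. Both alleles were made by CRISPR knock-in into the endogenous gene and are present in every cell of the embryo. Wild-type littermates of each line were the controls, so there were 12 groups of 4 libraries, except that wild-type littermates of Y130A gave 3 lungs. The study removed the lung of wild-type embryo 3069-6 as an outlier, and the liver and brain of that embryo are used here. Each library is 1 embryo's whole tissue, so fewer cells of a type and less RNA per cell cannot be told apart. The comparisons ask whether either Daxx interaction bears on RNA levels in these tissues.

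Collagens are secreted or membrane-bound proteins built from 3 chains wound into a triple helix. Fibrillar collagens form the fibres of connective tissue, collagen IV forms the sheet-like network of basement membranes under epithelia and around vessels, and the remaining collagens decorate fibrils, anchor cells, form filaments or span the membrane. In the embryo most of this RNA comes from fibroblasts, vessel wall cells, hepatic stellate cells, endothelium and, for some chains, epithelium.

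Total counts were 15722147 to 26190403 in the libraries of the S226A litters and 36351738 to 54885020 in those of the Y130A litters. Levels are given as CPM, counts scaled to a common library size by TMM, and levels of different genes are compared only as CPM per kilobase of merged exons. Daxx RNA itself lay between 27.2 and 50.9 CPM in every library and differed from wild type by at most 0.12 on the log2 scale (lowest adjusted p = 0.857). The alleles are substitutions that do not remove the gene, so that this level does not check the labels. Some libraries stood apart before any comparison. The liver of wild-type replicate 2 of the S226A litters and that of Y130A replicate 1 had 1078 and 722 CPM summed over the 7 squamous epithelial markers (Krt5, Krt14, Krt1, Krt10, Krt4, Krt13 and Sprr1a), against at most 9.98 in the other 14 livers. The brain of wild-type replicate 2 of the S226A litters had 13.8 CPM summed over 5 osteoblast markers (Bglap, Bglap2, Sp7, Ibsp and Dmp1), most of it Ibsp at 10.9 CPM, against at most 3.72 in the other 15 brains. S226A liver replicate 2 had 87.9 CPM summed over the skeletal muscle markers (Myh3, Acta1, Ckm, Myog and Mylpf), against at most 29.6 in the other livers. In the 15 lungs the squamous markers ran from 3.26 to 190.6 CPM, with high and low libraries in all groups but the wild-type Y130A littermates. The main counts of called collagens that rest on these liver and brain libraries are given with and without them. Wild-type levels and ranks, class sums, pathway genes, marker lists and the fits with litter as a block or by DESeq2 include them.

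**Figure D1:**
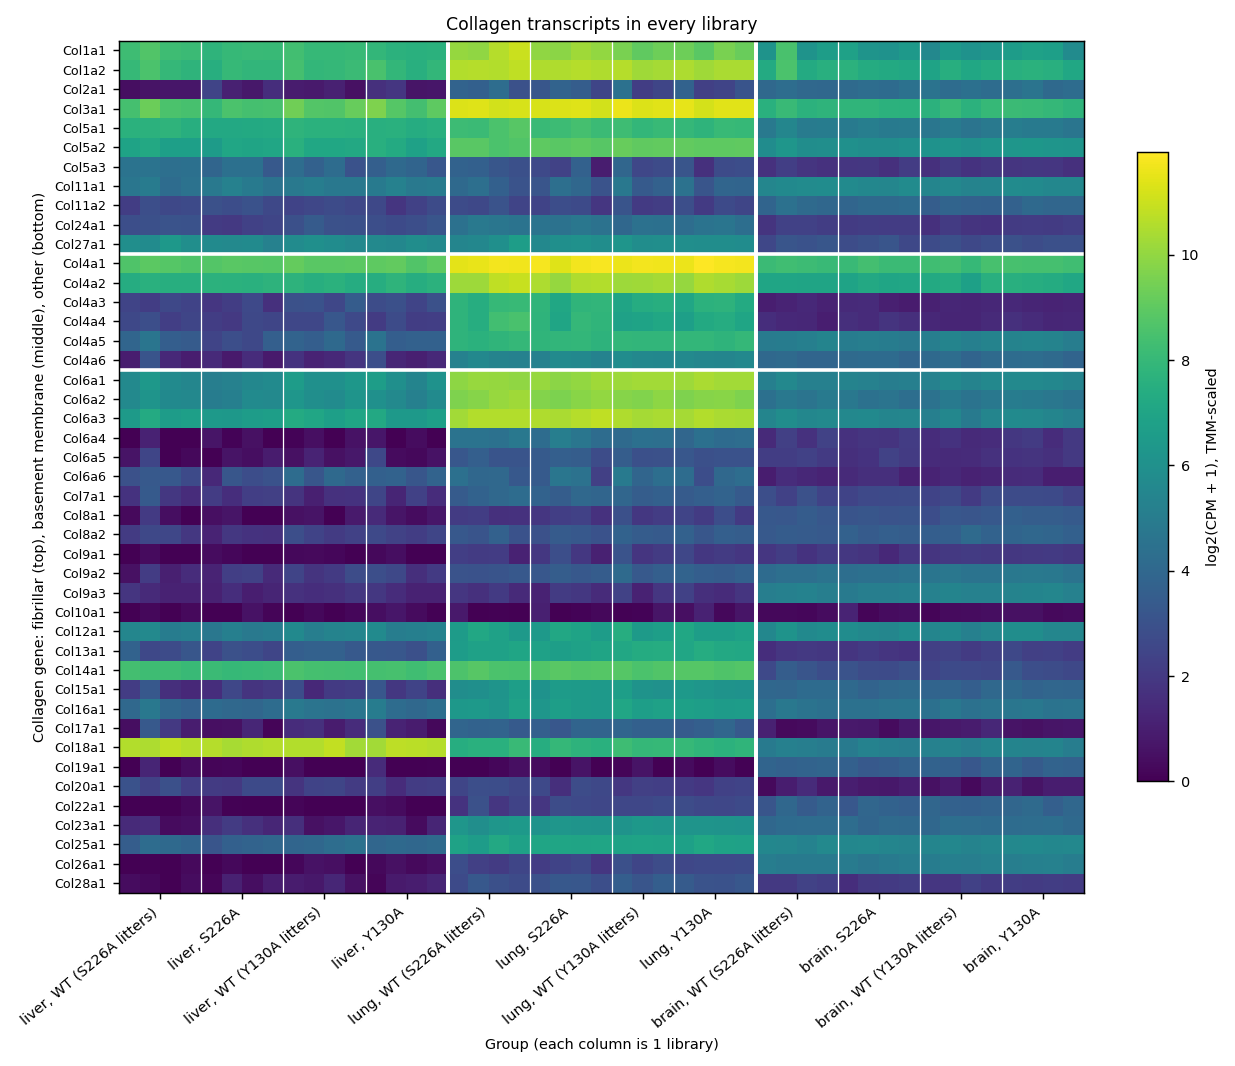
Level of each of the 44 collagen genes (rows) in each of the 47 libraries (columns), as log2(CPM + 1) after TMM scaling, with thick white lines between tissues and between the fibrillar, basement membrane and other collagens. Columns of 1 tissue look alike: by the mean of the wild-type libraries, with no test, 31 collagens are highest in lung, among them all 6 basement membrane chains, 2 in liver, one of them Col18a1, and 11 in brain, among them Col9a3, Col19a1, Col22a1 and Col26a1.

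Of the 3 wild-type tissues, lung held the most collagen RNA. Collagens made up 1.74% to 2.16% of all reads in the 7 wild-type lungs, 0.310% to 0.375% in the 8 livers and 0.156% to 0.264% in the 8 brains. Between lung and liver, 32 of the 44 collagens were higher in lung and 1 was lower, at an adjusted p below 0.01 and a fold beyond 2 by edgeR's quasi-likelihood test. Of all 16892 genes, 25.2% were higher and 19.5% lower by the same rule. The median log2 difference was 2.41 over the collagens and 0.08 over all genes. Between brain and liver, 18 collagens were higher in brain and 17 lower, against 30.2% and 27.5% of all genes, and between lung and brain 32 were higher in lung and 8 lower, against 26.4% and 23.5% of all genes. Put together, 25 of 44 collagens were higher in lung than in both other tissues, where 11.2% of all genes were. For brain these were 7 of 44 against 18.8%, and for liver 1 of 44 against 15%. TMM scaling bears on these values: without it, all lung-against-liver differences would be 0.63 higher and all brain-against-liver differences 0.58 higher on the log2 scale, and the sign of the difference in mean level would turn for Col19a1 in the first and for Col4a2 and Col1a2 in the second.

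All 6 basement membrane chains were higher in lung than in both other tissues. The chains are encoded as 3 head-to-head pairs of genes. Col4a1 and Col4a2 together form the trimer found in nearly every basement membrane. Per kilobase, Col4a1 had the highest mean level of any collagen in lung and in brain: its wild-type lungs ran from 376 to 461 (median 445) CPM per kilobase, its brains from 34.5 to 47.3 (median 40.02) and its livers from 53.6 to 75.004 (median 62.9). Col4a2 ran from 175 to 297 (median 183) in lung, 16.5 to 27.7 (median 19.7) in brain and 25.2 to 32.1 (median 27.05) in liver. The ranges of Col4a1 and Col4a2 did not overlap within a tissue. The ratio of Col4a1 to Col4a2 per kilobase stayed between 1.51 and 2.596 in all 47 libraries, mutants included. The first exons of this pair overlap by 22 bases on opposite strands of chromosome 8, and with no strand setting given for the counts, reads from that overlap cannot be told apart.

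Col4a3 and Col4a4, which join with Col4a5 in the trimer of mature kidney, lung and eye basement membranes, had the widest tissue range of the class. Wild-type lungs had 125 to 262 (median 179) CPM of Col4a3 and 113 to 364 (median 172) CPM of Col4a4. In wild-type livers Col4a3 had 3.48 to 10.2 (median 4.95) CPM and Col4a4 had 3.66 to 8.56 (median 4.98) CPM. In brains Col4a3 had 1.01 to 1.62 (median 1.34) CPM and Col4a4 had 1.04 to 1.93 (median 1.496) CPM. No lung library overlapped with any library of the other tissues. The differences between lung and brain were 7.15 (SE 0.18) and 6.93 (SE 0.19) on the log2 scale, the 2 largest of the 44. Only 71 bases separate the 2 gene models, on chromosome 1, and they are shown whole because this pair has the most lung-weighted levels of the class. The sequence is RefSeq's (GRCm38.p6, chr1:82586850-82586920), 5′ to 3′ on the Col4a4 (minus) strand, and is in lower case throughout because it holds none of the motifs searched.
Col4a4: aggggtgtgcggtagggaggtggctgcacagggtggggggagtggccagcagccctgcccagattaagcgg
The motifs searched, on both strands, were the TATA box (TATAAA), the box named for its letters CCAAT, and the GC box (spelled GGGCGG). Promoter windows of 250 bases before the start were found for 35 of the 44 collagens, in 38 windows. Of these, 13.2% held TATAAA, 34.2% CCAAT and 57.9% GGGCGG, where 12.4%, 33.8% and 32.7% of all 32851 windows in the table did. No window was matched for Col1a1, Col2a1, Col4a3, Col5a2, Col9a3, Col12a1, Col14a1, Col22a1 and Col26a1.

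Col4a5 and Col4a6 are the X-linked pair, 1308 bases apart. Wild-type lungs had 200.3 to 248 (median 232) CPM of Col4a5, brains 30.8 to 40.4 (median 34.6) and livers 9.46 to 23.9 (median 11.98). Col4a6 was the lowest chain of the class per kilobase in lung, at 4.61 to 6.89 (median 5.67) CPM per kilobase against 29.8 to 36.97 (median 34.5) for Col4a5. In brain the order within the class was different, with both chains of the X-linked pair above Col4a3 and Col4a4: Col4a6 ran from 1.71 to 2.27 (median 1.97) and Col4a4 from 0.0977 to 0.182 (median 0.141) CPM per kilobase.

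Of the 11 fibrillar collagens, 5 were higher in lung than in both other tissues (Col1a1, Col1a2, Col3a1, Col5a2 and Col24a1) and 1, Col11a2, was higher in brain than in both. Col3a1, the chain of the thin fibrils of soft organs, ran from 228 to 319 (median 260.0) CPM per kilobase in wild-type lung, 34.96 to 67.8 (median 43.2) in liver and 19.5 to 27.6 (median 21.7) in brain. Col1a1, the main chain of collagen I, ran from 79.8 to 314 (median 151) in lung, 38.7 to 63.1 (median 44.2) in liver and 7.15 to 55.7 (median 11.2) in brain. Col1a2, its partner, ran from 97.5 to 143 (median 123) in lung, 17.7 to 30.6 (median 20.2) in liver and 9.73 to 30.9 (median 12.7) in brain. Lung lay above liver in every library for these 3 genes. Liver and brain were apart for Col3a1, while for Col1a1 and Col1a2 the brain library with osteoblast markers reached the levels of liver. Of the chains best known from cartilage, Col2a1 had a median of 17.8 CPM in wild-type brain, 11.8 in lung and 0.660 in liver, and Col11a2 had medians of 13.3, 4.94 and 4.92 CPM.

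The 27 other collagens held both the liver's own chain and most of the brain's. Col18a1, a basement membrane proteoglycan core whose end fragment is endostatin, was the only collagen higher in liver than in both other tissues. Its wild-type livers ran from 181 to 261 (median 216) CPM per kilobase, its lungs from 24.4 to 42.4 (median 34.9) and its brains from 4.02 to 5.91 (median 5.01), with no overlap. The difference of lung from liver was -2.73 (SE 0.10) on the log2 scale. It was the top collagen of liver by a gap: the next, Col4a1, did not reach its range. Its exons overlap Slc19a1 on the opposite strand, so its level is uncertain to that extent. Col14a1, which binds fibrils, ran from 38.5 to 54.04 (median 46.4) CPM per kilobase in liver and 51.4 to 65.2 (median 55.8) in lung, and from 0.645 to 1.48 (median 0.761) in brain.

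The microfibril chains Col6a1, Col6a2 and Col6a3, which assemble together, were among the highest in lung. Wild-type lungs had Col6a1 from 218 to 287 (median 254), Col6a2 from 96.1 to 144 (median 106) and Col6a3 from 104 to 129 (median 122) CPM per kilobase. Livers had Col6a1 from 9.94 to 21.8 (median 14.2), Col6a2 from 5.58 to 9.12 (median 6.703) and Col6a3 from 7.62 to 13.2 (median 9.95). Col6a1 exceeded the other 2 chains in the mean of each tissue. Of the 7 collagens higher in brain than in both other tissues, 4 are given here. Col26a1 ran from 29.1 to 37.3 (median 31.7) CPM in wild-type brain, Col9a3 from 33.5 to 41.1 (median 36.6), Col22a1 from 7.78 to 14.9 (median 12.5) and Col19a1 from 8.42 to 14.1 (median 12.6). In wild-type liver the same 4 genes had medians of 0.112, 2.08, 0 and 0 CPM. Col9a3 shares exon bases with Tcfl5 on the opposite strand. Col10a1, the chain of hypertrophic cartilage, had at most 53 reads in a library, the lowest maximum of the 44, and 0 in 9 of 47 libraries. Its exons overlap Nt5dc1 on the opposite strand, and with no strand setting given, reads from that overlap cannot be told apart.

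**Figure D2:**
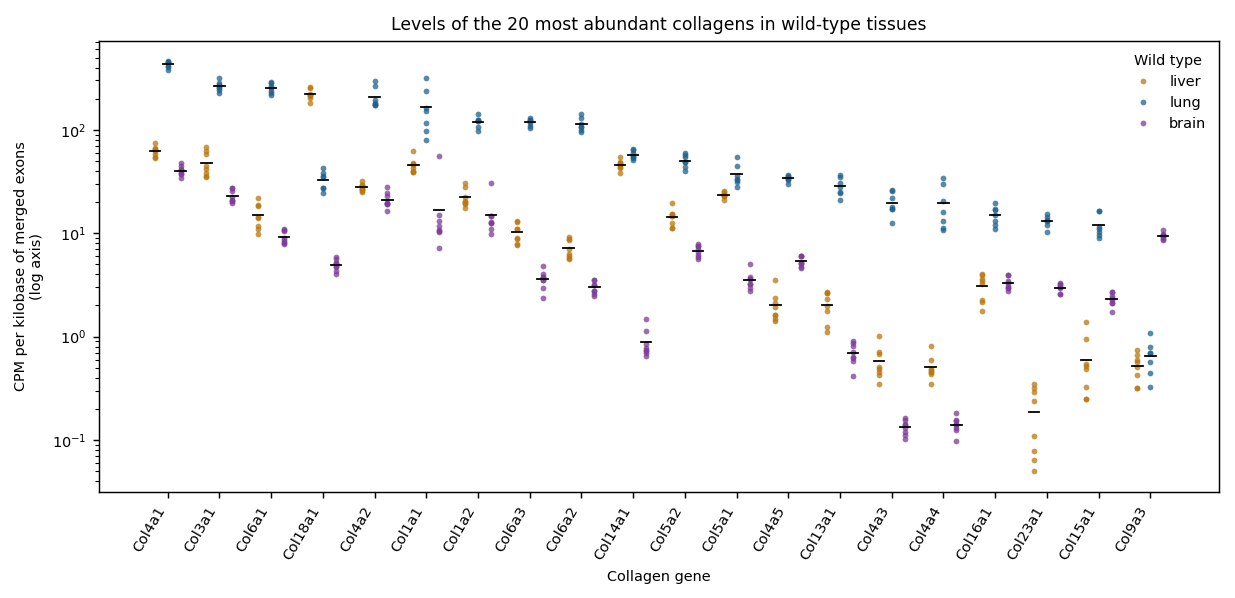
Level of the 20 collagens with the highest mean in any wild-type tissue, as CPM per kilobase of merged exons on a log axis, with 1 point per wild-type library (liver 8, lung 7, brain 8) and a black bar at the mean. Lung points lie highest for most genes, liver points lie highest for Col18a1 alone, and Col9a3 is the gene shown whose brain points lie highest.

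By rank of the mean per kilobase, the 5 highest collagens of wild-type liver were Col18a1, Col4a1, Col3a1, Col14a1 and Col1a1 (221 ± 26.5, 62.4 ± 6.97, 48.1 ± 12.95, 45.9 ± 4.67 and 45.5 ± 7.98 CPM per kilobase, mean ± SD, n = 8). The first was clear of its neighbour, the ranges from Col4a1 to Col1a1 overlapped from one to the next, and Col1a1 was clear of the collagen after it, Col4a2. In lung they were Col4a1, Col3a1, Col6a1, Col4a2 and Col1a1 (429.8 ± 30.9, 266 ± 29.5, 254 ± 26.98, 209 ± 50.8 and 166 ± 83.7, n = 7), and here only the first was clear of the next. In brain they were Col4a1, Col3a1, Col4a2, Col1a1 and Col1a2 (40.4 ± 4.28, 23.1 ± 3.32, 21.2 ± 3.63, 16.8 ± 15.9 and 14.9 ± 6.67, n = 8), likewise. These brain means include the library with osteoblast markers, and by median Col1a1 lay below Col1a2 (11.2 against 12.7 CPM per kilobase). The length used matters here. Merged exons of Col1a2 span 12426 bases and its longest transcript 5348, and with the longest transcript Col1a2 rose to rank 3 in lung and brain and to rank 4 in liver.

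Summed per kilobase, the other collagens took 55.0% ± 3.39 (SD, n = 8) of all collagen in wild-type liver, 33.4% ± 2.59 (n = 7) in lung and 32.4% ± 2.85 (n = 8) in brain. Basement membrane chains took 16.3% ± 0.712, 35.0% ± 2.00 and 33.2% ± 4.11. The liver values of both classes lay outside the lung and brain ranges. In no tissue and no class did the summed levels of mutants lie apart from those of their littermates.

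**Figure D3:**
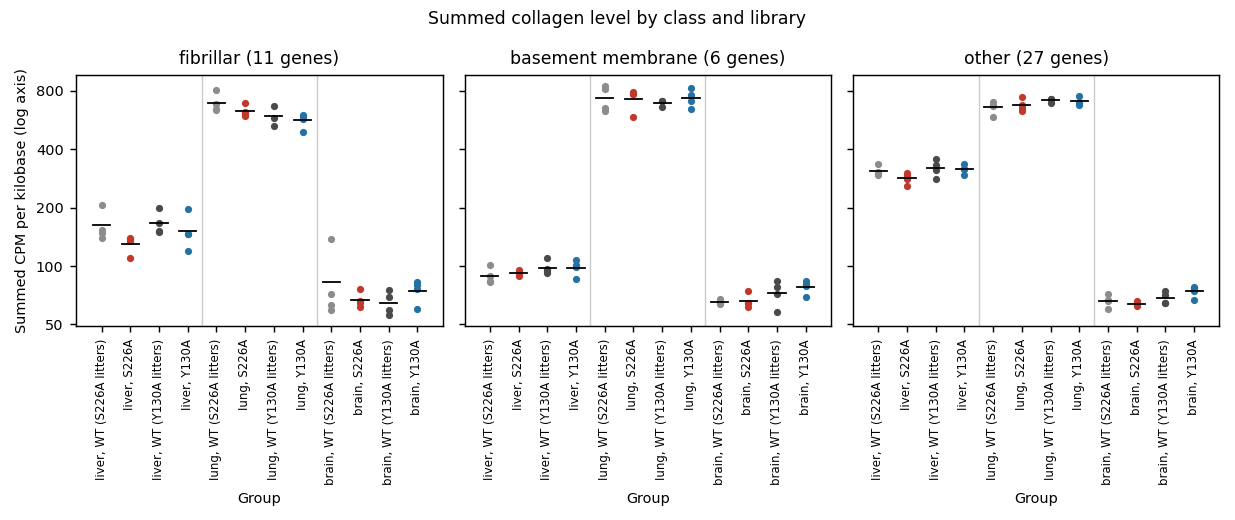
Summed level of the fibrillar, basement membrane and other collagens in each library (points), as CPM per kilobase on a log axis, by tissue and genotype, with black bars at the group means (4 libraries per group, and 3 for lungs of wild-type Y130A littermates). Lung points lie above all others in each class, mutant and wild-type littermate points overlap in every tissue and class, and 1 wild-type brain of the S226A litters lies above the other brains for fibrillar collagens.

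In S226A liver 5 of the 44 collagens were lower than in wild-type littermates and 0 higher at an adjusted p below 0.05 by edgeR's quasi-likelihood test. These 5 are 11.4% of the collagens, where 11.7% of all 16892 genes passed in either direction, 5.54% as lower and 6.14% as higher. The 5 were Col24a1 and Col5a1 (fibrillar), Col4a5 (basement membrane) and Col8a2 and Col17a1 (others). By sign alone, 32 of 44 collagens lay below wild type, with a median log2 change of -0.33, against 51.6% of all genes and a median of -0.01. Without the livers with squamous transcripts, 25 of 44 lay below, with a median of -0.12. Counting genes whose 4 S226A livers all lay on one side of the 4 wild-type livers, 5 collagens were lower (Col24a1, Col5a1, Col8a2, Col1a1 and Col27a1), where 5.18% of all genes were, and 1 was higher (Col2a1), where 6.7% were. By stricter criteria (adjusted p below 0.01, fold beyond 2, SE below 1), 1 collagen passed, Col4a5, where 2.1% of all genes did, and 0 passed without the livers with squamous transcripts, where the Col4a5 fall was 0.79 on the log2 scale. With litter and tissue as a block over all libraries, the count was 3 higher and 5 lower, where 6.68% and 6.57% of all genes were. With litter as a block in the 8 livers alone it was 4 lower (Col5a1, Col27a1, Col1a1 and Col4a5), where 4.25% of the genes in that fit were. Without S226A replicate 1 it was 1 higher and 2 lower, where 5.48% and 4.2% of all genes were. Without replicate 2, the liver with skeletal muscle transcripts, it was 1 higher and 4 lower, where 5.34% and 5.79% of all genes were. DESeq2 called 3 higher (Col2a1, Col23a1 and Col28a1) and 7 lower, where it called 6.97% and 8.22% of all genes. The fit on the 8 livers alone, without a block, called 3, all lower, where 2.7% of its genes were. The p-values of the main fit rest on 1 spread per gene, taken over all 12 groups and 3 tissues. Libraries of 1 embryo count as separate there. With litter as a block, the p-values rest on the spread left after the litters are set apart.

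Col24a1, a minor fibrillar chain found with collagen I fibrils, showed the clearest separation. Wild-type littermates had 6.26, 6.44, 7.402 and 7.17 CPM and S226A livers 3.16, 3.003, 3.96 and 4.71 CPM. Every S226A liver lay below every wild-type liver of both lines. Col24a1 fell by 0.88 on the log2 scale (SE 0.17, adjusted p = 0.00025 by edgeR), from 6.82 ± 0.552 to 3.71 ± 0.788 CPM (SD, n = 4 each). The call stood without the livers with squamous transcripts (-0.91, adjusted p = 0.000671), and also without any single library. With the litter as a block in the 8 libraries alone, the change was -0.88 with an adjusted p of 0.0615.

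Col5a1, the regulatory chain of collagen V that limits fibril width, had a small and even difference. Wild-type littermates had 197, 203, 216 and 177 CPM and S226A livers 149, 149, 150.3 and 158 CPM. The 4 S226A values sat close together, below all wild-type values. The gene fell by 0.39 on the log2 scale (SE 0.12, adjusted p = 0.0243), a 1.31-fold change. It is near the threshold: leaving out any one of 5 of the 8 libraries (wild-type replicates 2 and 3, S226A replicates 1, 2 and 3) moved the adjusted p to between 0.0506 and 0.0776. Without the livers with squamous transcripts the fall was 0.38 and the call was lost (adjusted p = 0.0533). Its partner chains did not pass. Col5a2 had 121, 147, 107 and 107 CPM in wild type and 93.1, 133, 126 and 133 in S226A liver. Col5a3 had 22.4, 22.8, 19.3 and 20.3 CPM in wild type and 13.96, 20.1, 20.5 and 9.22 in S226A liver. For both chains the groups overlapped (adjusted p = 1 and 0.578).

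Col4a5 had a larger change and more spread. Wild-type littermates had 14.1, 23.9, 10.8 and 9.93 CPM and S226A livers 4.41, 6.37, 4.95 and 11.1 CPM. Replicates 1 to 3 of S226A lay below every wild-type liver, and replicate 4 lay among the wild-type values. The gene fell by 1.13 on the log2 scale (SE 0.23, adjusted p = 0.00054), a 2.19-fold change. The highest wild-type value is the liver with squamous transcripts, and without such livers the fall was 0.79 (SE 0.18, adjusted p = 0.00272). Of its partners, Col4a6 had 0.921, 7.62, 1.58 and 0.919 CPM in wild type and 1.71, 0.831, 1.86 and 0.796 in S226A liver. Col4a3 had 4.54, 3.48, 5.03 and 4.23 CPM in wild type and 2.77, 3.51, 5.198 and 2.12 in S226A liver. Col4a4 had 5.097, 6.24, 3.66 and 4.597 CPM in wild type and 3.56, 2.96, 5.07 and 4.58 in S226A liver. None of these 3 passed, and their groups overlapped. Col4a1 and Col4a2, the most abundant chains of the class, had log2 changes of 0.05 and 0.15 (adjusted p = 0.847 and 0.56).

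Col8a2, a chain of the hexagonal network under endothelium, had 3.25, 5.06, 4.89 and 2.88 CPM in wild-type littermates and 1.25, 2.77, 2.41 and 2.26 CPM in S226A livers. All 4 S226A livers lay below the lowest wild-type liver, by a narrow margin. It fell by 0.87 on the log2 scale (SE 0.23, adjusted p = 0.0088). The call was lost with litter as a block in the 8 livers (adjusted p = 0.203), in the fit on those livers alone (0.197) and without S226A replicate 1 (0.0553), and stood without the livers with squamous transcripts (0.0464). Its partner Col8a1 was close to the detection limit, with 0.246, 3.02, 0.359 and 0 CPM in wild type and 0.395, 0.601, 0 and 0 CPM in S226A liver.

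Col17a1, the membrane-spanning collagen of epithelial hemidesmosomes, had the largest fitted change of the 5 and the least secure one. Wild-type littermates had 0.368, 9.27, 3.02 and 0.919 CPM and S226A livers 0.395, 0.462, 1.42 and 0.133 CPM. The groups overlapped, and the highest value is again the wild-type liver with squamous transcripts. The fitted change was -2.48 (SE 0.72, adjusted p = 0.0172). Without that wild-type liver it was -1.21 with an adjusted p of 0.325, and the call was also lost without S226A replicate 1, 2 or 4 (adjusted p = 0.053, 0.0506 and 0.0628), with litter as a block in the 8 livers (0.107) and in the fit on those livers alone (0.11).

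By class, 7 of 11 fibrillar, 4 of 6 basement membrane and 21 of 27 other collagens lay below wild type in S226A liver, with median log2 changes of -0.36, -0.32 and -0.32. Without the livers with squamous transcripts these were 7 of 11, 3 of 6 and 15 of 27, with medians of -0.12, -0.02 and -0.13. Some of the rest kept their libraries apart without passing the test over all libraries. Of these, Col1a1 and Col27a1 were called lower with litter as a block in the 8 livers (adjusted p = 0.0286 and 0.0233 by edgeR). Col1a1 had 299, 414, 305 and 281 CPM in wild type and 218, 255, 275 and 262 CPM in S226A liver (-0.36, adjusted p = 0.523). Col27a1, a fibrillar chain of cartilage, had 58.7, 52.97, 82.8 and 59.7 CPM in wild type and 51.4, 48.6, 52.2 and 37.6 CPM in S226A liver (-0.42, adjusted p = 0.122). All values of both genes in S226A liver lay below those of wild type. Col2a1, the main chain of cartilage fibrils, lay on the other side, with 0.368, 0.526, 0.647 and 0.674 CPM in wild type and 4.54, 1.11, 0.681 and 1.99 CPM in S226A liver (1.88, SE 0.66, adjusted p = 0.0562). The chondrocyte markers (Acan, Matn1, Matn3, Cnmd and Comp, 5 of 5 measured, none at 0) summed to 9.53 to 14.8 CPM in wild-type and 6.84 to 10.2 CPM in S226A livers.

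**Figure D4:**
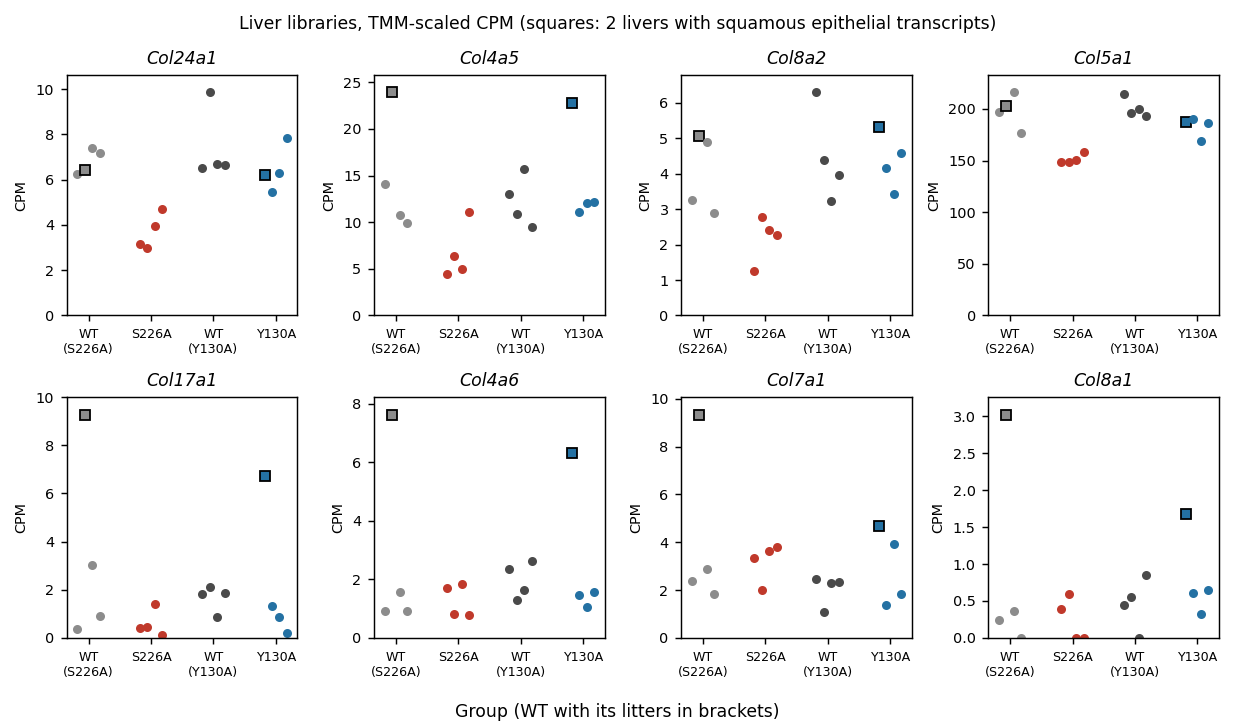
Level in every liver library of the 5 collagens that were lower in S226A liver (Col24a1, Col4a5, Col8a2, Col5a1 and Col17a1) and of Col4a6, Col7a1 and Col8a1, as CPM from 0, by genotype with 4 libraries each. Red S226A points lie below both wild-type groups for Col24a1, Col8a2 and Col5a1, and the 2 squares, livers with squamous epithelial transcripts, lie highest for Col4a5, Col17a1, Col4a6, Col7a1 and Col8a1.

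The proximal promoters of the 5 genes and of Col4a6, the head-to-head neighbour of Col4a5, are shown because these genes carry the liver result. Each is the 100 bases before the annotated start (RefSeq promoter table, GRCm38.p6), 5′ to 3′ on the gene's strand, with capitals marking any of the 3 motifs above or its reverse complement. The positions are chr3:145292372-145292471 (plus strand) for Col24a1, chr2:27886325-27886424 (plus) for Col5a1, chrX:141475285-141475384 (plus) for Col4a5, chrX:141474077-141474176 (minus) for Col4a6, chr4:126286693-126286792 (plus) for Col8a2 and chr19:47692095-47692194 (minus) for Col17a1.
Col24a1: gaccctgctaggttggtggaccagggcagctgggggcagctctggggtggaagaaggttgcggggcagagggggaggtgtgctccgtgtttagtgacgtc
Col5a1: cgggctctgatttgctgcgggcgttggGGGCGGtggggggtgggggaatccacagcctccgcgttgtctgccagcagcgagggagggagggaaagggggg
Col4a5: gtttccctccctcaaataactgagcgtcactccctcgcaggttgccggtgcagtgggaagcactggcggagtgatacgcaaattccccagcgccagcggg
Col4a6: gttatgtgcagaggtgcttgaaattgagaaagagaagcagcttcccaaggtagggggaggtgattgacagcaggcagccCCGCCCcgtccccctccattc
Col8a2: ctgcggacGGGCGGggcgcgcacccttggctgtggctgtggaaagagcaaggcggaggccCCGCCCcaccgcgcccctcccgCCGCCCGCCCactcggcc
Col17a1: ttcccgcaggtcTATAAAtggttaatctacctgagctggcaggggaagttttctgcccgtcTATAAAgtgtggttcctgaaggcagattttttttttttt
Col17a1 held TATAAA 2 times and no other motif, Col8a2 held the GC box 4 times, with 2 of these overlapping, and Col5a1 and Col4a6 held it 1 time each. Col24a1 and Col4a5 held none of the 3 in these 100 bases, so that no motif searched was shared by the 5 genes.

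Markers of other cell types also differed between these livers. The neutrophil markers (S100a8, S100a9, Ngp, Camp and Ltf, 5 of 5 measured) summed to 2542 to 3151 CPM in wild-type and 7341 to 8048 CPM in S226A livers. The macrophage markers (Csf1r, Adgre1, Cd68, Marco and Vsig4, 5 of 5 measured) summed to 411 to 471 and 159.8 to 241 CPM, with Vsig4 at 0 in all S226A livers. Of the 4 lists for stellate, endothelial, fibroblast and vessel wall cells, 2 were lower in sum without overlap: hepatic stellate cells (Lrat, Reln, Des, Hand2, Rgs5) 696 to 776 against 522 to 677 CPM, and endothelium (Pecam1, Cdh5, Kdr, Tek, Emcn) 355 to 396 against 265 to 324 CPM. Tested gene by gene with edgeR, no stellate marker passed. Of the endothelial markers only Cdh5 (-0.46, adjusted p = 0.007) and Pecam1 (-0.34, adjusted p = 0.036) did. The fibroblast and the smooth muscle and pericyte lists overlapped. Fibroblast markers (Pdgfra, Tcf21, Dpt, Twist2, Meox1) summed to 22.9 to 45.02 against 25.9 to 33.8 CPM, and smooth muscle and pericyte markers (Acta2, Tagln, Myh11, Pdgfrb, Cspg4) to 91.5 to 343 against 84.4 to 113 CPM, with Cspg4 higher in S226A liver (1.06, adjusted p = 0.00964 by edgeR). All 5 markers of each of these 4 lists were measured and none was at 0. Hepatocyte markers (Alb, Afp, Apoa1, Serpina1a, Ahsg) were also lower without overlap, at 190823 to 196309 against 157094 to 187899.6 CPM. The part of these shifts in the collagen result was not tested.

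In the 2 livers with squamous transcripts, 10 of 44 collagens were higher than in all 14 other livers, where 2.72% of all tested genes were. Beside Col17a1, Col4a5 and Col4a6 these were Col7a1 (9.33 and 4.69 CPM against at most 3.93), the anchoring fibril of skin, and Col6a5 (4.73 and 5.02 against at most 1.28), Col8a1, Col15a1, Col19a1, Col6a4 and Col1a2. Smooth muscle and pericyte markers summed to 343 and 262 CPM there, against at most 189.7 in the other livers. With both left out, 4 collagens were lower (Col24a1, Col4a5, Col8a2 and Col13a1) and 2 higher (Col9a2 and Col23a1) in S226A liver, where 4.33% and 6.63% of all genes in that fit were.

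**Figure D5:**
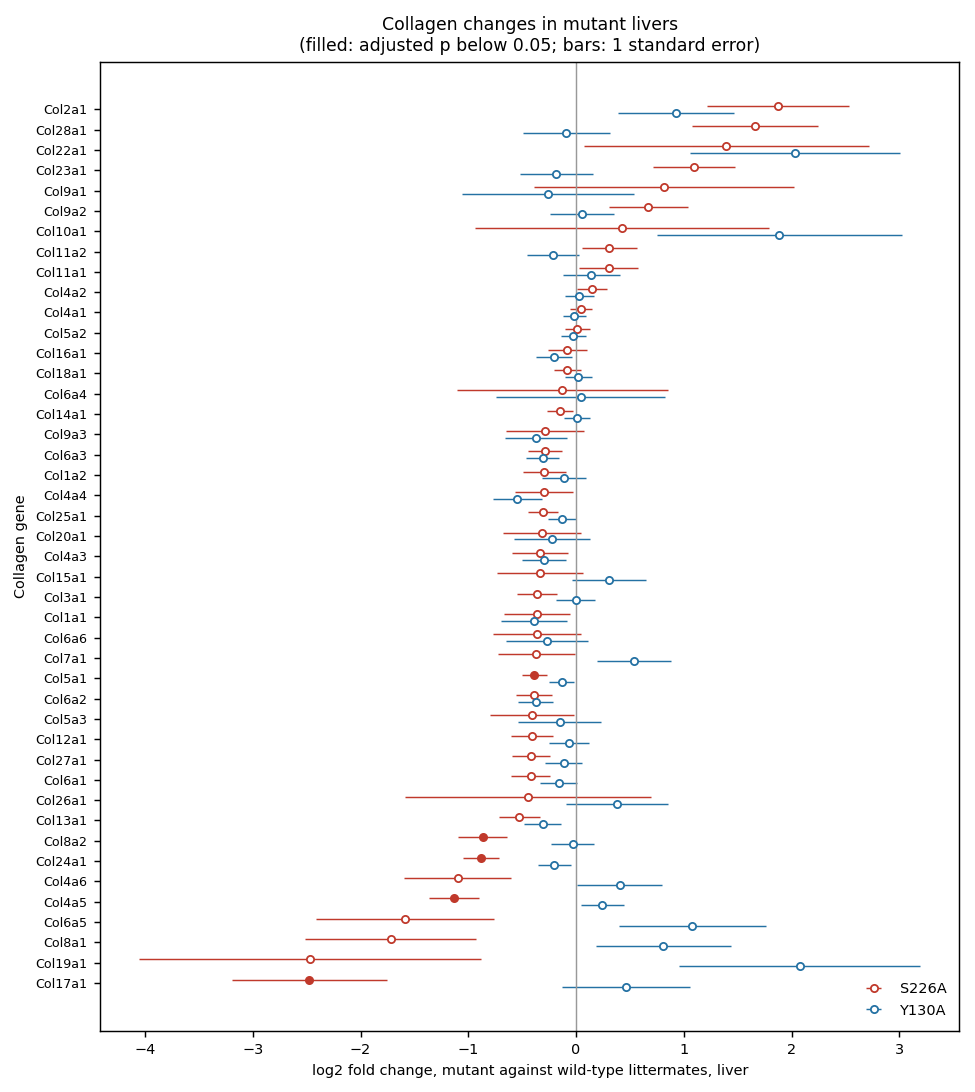
Log2 fold change of each collagen in S226A (red) and Y130A (blue) liver against its own wild-type littermates, with bars of 1 standard error, ordered by the S226A value, and filled points for an adjusted p below 0.05. Only 5 red points are filled (Col17a1, Col4a5, Col24a1, Col8a2 and Col5a1), no blue point is, and the genes with the widest bars are those of low level.

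Y130A livers had 0 of 44 collagens called by edgeR or by DESeq2, where 0.272% of all genes passed by edgeR. At an unadjusted p below 0.05 there were 3 collagens, where 9.22% of all genes reached that level. Col24a1 had 6.53, 9.86, 6.68 and 6.64 CPM in wild-type Y130A littermates and 6.23, 5.44, 6.31 and 7.82 CPM in Y130A livers. These groups overlapped. Col5a1 had 214, 196, 200.1 and 193 CPM in wild type and 188, 190.1, 169 and 186 CPM in Y130A liver, a difference of -0.13 on the log2 scale (adjusted p = 0.859). Col1a1 had 317, 254, 255 and 262 CPM in wild type and 238, 204, 189.6 and 198 CPM in Y130A liver (-0.39, adjusted p = 0.833). For these 2 of 44 collagens every Y130A liver lay below every wild-type liver, as for 1.19% of all genes, and neither passed the test. Col8a2 had 6.29, 4.37, 3.23 and 3.97 CPM in wild type and 5.31, 4.16, 3.44 and 4.59 CPM in Y130A liver, with overlap. Tested directly, the effects of the alleles on liver differed for 1 collagen, Col4a5, where 5.9% of all genes differed and 2.71% did so in its direction. Its change was -1.13 in S226A and 0.24 in Y130A liver, a difference of -1.38 (SE 0.31, adjusted p = 0.00352 by edgeR). DESeq2 called 5, of which 1 was higher (Col23a1) and 4 lower (Col4a5, Col24a1, Col8a1 and Col17a1), where it called 3.99% and 4.75% of all genes. In the fit on the liver libraries alone the Col4a5 difference was -1.35 and the call was lost (adjusted p = 0.107). Col4a5 had 13.1, 10.9, 15.8 and 9.46 CPM in the wild-type livers of the Y130A litters and 22.8, 11.1, 12.05 and 12.1 CPM in Y130A livers, of which the first is the liver with squamous transcripts. Without both such livers the difference was -0.73 (SE 0.24, adjusted p = 0.0757), and no collagen was then called lower while 2, Col16a1 and Col23a1, were called higher, where 1.7% and 3.27% of all genes were. The count was 2 or 3, all lower, without single libraries (wild-type replicate 1 or 4 or S226A replicate 3 or 4 of the S226A litters, Y130A replicate 2, 3 or 4, and wild-type replicate 1 or 2 of the Y130A litters), and over all 16 such fits 1.75% to 3.26% of all genes were lower. For Col24a1 the difference between alleles was -0.68 (SE 0.23, adjusted p = 0.07), for Col8a2 -0.84 (adjusted p = 0.106) and for Col5a1 -0.26 (adjusted p = 0.455), so that a difference between the alleles was not shown for these genes.

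The genes that modify, cross-link, bind or degrade collagens were read from lists of 74 genes. In S226A liver 3 of 74 were higher and 5 lower, where 6.14% and 5.54% of all genes were. Both higher proteases were neutrophil enzymes: Mmp9, a gelatinase, had 80.02, 80.2, 71.6 and 68.5 CPM in wild type and 194, 166, 189.7 and 178 CPM in S226A liver, which did not overlap. Mmp8, neutrophil collagenase, had 89.7, 92.99, 66.9 and 65.2 CPM in wild type and 194, 169, 194 and 165 CPM in S226A liver, also apart. The log2 changes were 1.28 (SE 0.17, adjusted p = 5.9e-07) and 1.20 (SE 0.18, adjusted p = 5.2e-06). They moved with the neutrophil markers given above, and the part of these cells was not tested. Of the 20 genes for chain modification and folding, 1 was higher, Plod3, a lysyl hydroxylase (45.6, 46.9, 49.8 and 50.8 CPM against 60.2, 60.5, 63.4 and 64.6). Of the 16 other basement membrane proteins, 4 were lower and 0 higher, beside the 5.54% and 6.14% of all genes given above. Pxdn, the peroxidase that cross-links collagen IV, had 82.8, 82.7, 73.1 and 64.6 CPM in wild type and 59.8, 53.7, 60.02 and 63.2 in S226A liver (log2 change -0.36, SE 0.08, adjusted p = 0.00122), with no overlap. The other 3 were laminin chains, including Lamb3 (-0.60, adjusted p = 0.00257) and Lama4 (-0.40, adjusted p = 0.0228). Lamb3 was apart, while Lama4 overlapped, at 17.6 to 27.8 CPM in wild type and 13.2 to 17.8 CPM in S226A liver. The livers with squamous transcripts are included here, and the part of the cell types given above was not tested. The median log2 change of these 16 was -0.20. Of 13 trimming and cross-linking genes 1 was lower, and of 5 fibril-binding genes and 10 receptors 0 passed. By edgeR 0 of the 74 passed in Y130A liver, lung or brain or in S226A brain.

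Lung and brain showed no called collagen in either mutant. In S226A lung 0 of 44 passed by edgeR and by DESeq2, where 1.88% of all genes passed by edgeR, and 1 had an unadjusted p below 0.05, where 16.2% of all genes did. The median log2 change was 0.00 over the collagens. Without S226A replicate 3, 1 collagen passed, Col5a3, as lower, where 1.34% of all genes did. The neutrophil enzymes Mmp8 and Mmp9 were the 2 of 74 pathway genes that passed there, both higher, at 1.73 (adjusted p = 1e-06) and 1.58 (adjusted p = 5.5e-06), beside neutrophil markers of 31.9 to 74.8 CPM in wild-type and 127 to 176 CPM in S226A lungs. Of the genes lower in S226A liver, Col24a1 had in lung 21.01, 27.3, 24.8 and 22.1 CPM in wild type and 22.1, 21.996, 25.98 and 21.8 in S226A. Col5a1 had 287, 279, 379 and 459 CPM in wild-type and 277, 294, 338 and 285 in S226A lung. Col4a5 had 219, 200.3, 224 and 248 CPM in wild-type and 224, 231, 239.9 and 208 in S226A lung. All 3 overlapped between the groups. In Y130A lung 0 of 44 passed by either tool, where 0.0178% of all genes passed by edgeR, and 0 had an unadjusted p below 0.05, where 2.92% of all genes did.

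In S226A brain 0 of 44 passed by either tool, where 0.243% of all genes passed by edgeR, with 2 at an unadjusted p below 0.05 (2.27% of all genes). These 2 were the collagen I chains. Col1a1 had 70.04, 365, 69.7 and 99.5 CPM in wild-type and 115, 70.9, 67.9 and 83.9 CPM in S226A brain, a difference of -0.84 on the log2 scale (adjusted p = 1), which was 0.08 without the library with osteoblast markers. Col1a2 had 155, 383, 157 and 183 CPM in wild-type and 202, 161, 154 and 141 CPM in S226A brain, a difference of -0.41 (adjusted p = 1), which was 0.00 without it. Both groups overlapped. In Y130A brain 0 passed by either tool, where 0.00592% of all genes did, with 2 at an unadjusted p below 0.05 (2.22% of all genes). The signs there were uneven: 40 of 44 collagens lay above wild type, with a median log2 change of 0.11, where 50.5% of all genes lay below and the median was 0.00. The collagens share their libraries and cell types, so that the 40 are not 40 separate observations. Meninges markers (Foxc1, Foxd1, Ranbp3l, Slc22a6 and Aldh1a2) summed to 45.2 to 58.4 CPM in wild-type and 47.9 to 55.2 CPM in these Y130A brains, and smooth muscle and pericyte markers to 61.7 to 87.7 and 72.97 to 88.4 CPM, so that both overlapped. The list kept for hepatic stellate cells (Lrat, Reln, Des, Hand2 and Rgs5, 5 of 5 measured) did not: it summed to 433 to 584 CPM in wild-type and 586 to 646 CPM in Y130A brains. Most of that sum is Reln, which neurons also express, at 428, 460.0, 329.6 and 470.1 CPM in wild-type and 555, 532, 497 and 481 CPM in Y130A brains, while Rgs5 overlapped. The part of these cells in the collagen signs was not tested. Col24a1 was one of 3 collagens whose 4 Y130A brains all lay above wild type (3.29, 3.35, 3.27 and 3.62 against 2.11, 3.25, 2.51 and 2.41 CPM), where 2.66% of all genes did so, with an unadjusted p of 0.0167 and an adjusted p of 1. In lung and in brain the effects of the alleles differed for 0 of 44 collagens by edgeR or DESeq2, where 0.308% and 0.0829% of all genes differed, and 0 and 3 had an unadjusted p below 0.05, where 9.80% and 2.29% of all genes did.

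The wild-type littermates of the 2 lines are separate litters, sequenced to different depth, and they show how far collagen levels differ between sets of wild-type embryos. In wild-type lung 4 collagens were higher and 2 lower in the S226A litters than in the Y130A litters, where 10.8% and 9.24% of all genes were. Col1a1 had 1065, 993, 1565 and 2060.3 CPM in the S226A litters and 757, 524 and 641 CPM in the Y130A litters, with no overlap, a log2 difference of 1.15 (SE 0.34, adjusted p = 0.013). Its partner Col1a2 had 1507, 1547, 1525 and 1772 CPM in the S226A litters and 1546, 1211 and 1315 CPM in the Y130A litters, with overlap, a difference of 0.23 (adjusted p = 0.526). The ratio of Col1a1 to Col1a2 per kilobase was 1.21 to 2.201 in the wild-type lungs of the first line and 0.819 to 0.927 in those of the second. It was 1.21 to 1.47 in S226A and 0.752 to 1.05 in Y130A lungs. Col4a4 had 218, 172, 319.8 and 364 CPM in the S226A litters and 113, 120.0 and 138 in the Y130A litters (1.12, SE 0.21, adjusted p = 0.00018). Squamous markers summed to 3.83 to 174 CPM in the lungs of the S226A litters and 69.4 to 191 CPM in those of the Y130A litters. Endothelium (1840.4 to 2120.0 against 1615 to 1825 CPM) and macrophage markers (78.4 to 90.7 against 64.6 to 71.96 CPM) were higher in the lungs of the S226A litters without overlap, and osteoblast markers lower (0.501 to 1.096 against 1.38 to 3.47 CPM, with Bglap2 at 0 in all of them). The part of these lists in the differences was not tested. Replicates 3 and 4 of the S226A litters were the highest for Col1a1, Col4a2, Col4a4 and Col5a1. Without replicate 4, the Col1a1 difference was 0.91 with an adjusted p of 0.0732, and Col4a4 kept its call (0.93, adjusted p = 0.00214). The count of 6 was 2, 1 and 2 without replicate 3 of the S226A litters and replicates 2 and 3 of the Y130A litters, where 13.4%, 15.7% and 15% of all genes were called. In the fit on these 7 lungs alone it was 2, where 1.81% of its genes were called.

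In wild-type liver 0 collagens were higher and 5 lower in the S226A litters (3.97% and 9.11% of all genes): Col28a1, Col9a2, Col4a3, Col5a2 and Col16a1. The last 4 overlapped between the sets. Without the livers with squamous transcripts, one of which is replicate 2 of the S226A litters, 8 were lower (10.7% of all genes), and in the fit on these 8 livers alone 0 of 44 were called (3.65%). The count was 3, 1 and 3 without replicates 1, 3 and 4 of the S226A litters, and 3 and 1 without replicates 1 and 4 of the Y130A litters, where 6.97% to 17.1% of all genes were called over the fits without 1 library. Hepatocyte markers (190823 to 196309 against 207007 to 241381 CPM) and neutrophil markers (2542 to 3151 against 3238 to 4042 CPM) were lower in the S226A litters without overlap, and their part was not tested.

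In wild-type brain 2 were higher, Col1a1 and Col14a1, and 0 lower (1.47% and 4.51% of all genes). In the fit on these 8 brains alone 8 were higher and 2 lower, where 12.7% and 12.1% of its genes were, and Col14a1 but not Col1a1 was among the 8. Col1a1 had 70.04, 365, 69.7 and 99.5 CPM in the S226A litters and 46.9, 86.3, 67.2 and 76.7 CPM in the Y130A litters, so that the groups overlapped except for replicate 2 of the first. That library, the one with osteoblast markers, had 365 CPM of Col1a1 and 383 CPM of Col1a2, where the other 15 brains reached 115 and 202 CPM. It was the highest of the 16 brains for 11 of 44 collagens, where it was for 4.24% of all tested genes. Its chondrocyte markers (6.12 CPM) and meninges markers (56.3 CPM) lay close to those of the other brains, which reached 5.84 and 58.4 CPM. Between the sets, neuron markers (3031 to 3365 against 3753 to 4122 CPM) and squamous markers (7.06 to 7.96 against 9.05 to 48.2 CPM, with Krt4 and Sprr1a at 0 in the S226A litters) were lower in the S226A litters without overlap, and the list for hepatic stellate cells, mostly Reln, was higher (616 to 657 against 433 to 584 CPM). Their part in the differences was not tested. Without the library with osteoblast markers the Col1a1 difference was 0.20 (SE 0.22, adjusted p = 0.746) and no collagen was called. The count was 1 without replicate 3 of the S226A litters or replicate 1 or 3 of the Y130A litters, where 1.99% to 4.98% of all genes were called over the fits without 1 library. Since line, litter and depth move together, they cannot be told apart in these differences, and each mutant was therefore read against its own littermates.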

How the data were processed

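RNA of whole liver, lung and brain was sequenced per embryo. The authors aligned the reads to GRCm38 with STAR and deposited whole-number counts per gene, which are not normalized, as 1 table. The strand setting was not given in the sources used here. Gene IDs were matched to symbols for 20424 of 20456 genes. Counts were tested as deposited with edgeR 4.0.16 (R 4.3.3) by the quasi-likelihood test, with TMM scaling, filterByExpr (10 in a library, 15 in all), 1 coefficient per group over all 47 libraries, and Benjamini-Hochberg adjustment over 16892 genes. Lengths were merged exons of the GENCODE models of GRCm38. DESeq2 1.42.0, other scaling, no filter, thinning to 20341531 counts, litter blocks and leaving out each library were alternatives. Groups, embryos and litters came from the labels. Litters pair the libraries: deviations from the group means correlated above 0.1 in 18 of 23 pairs of littermates in different groups of a tissue and in 5 of 69 other pairs. The script was tested on simulated data, and no replicates were copies (lowest chi-square per degree of freedom 4.09 over 69 pairs). Any collagen could be named. Per-library values were given for collagens called in a mutant comparison and their partner chains, and ranges for the 5 highest per tissue; pathway genes were the 6 of lowest adjusted p. Members and lists were chosen with earlier results of these data known.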

Additional observations from a re-analysis of the deposited data

Results flagged for a closer look

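For 19 collagens that are called or abundant, each group of 4 libraries was searched for a highest or lowest library whose gap to the next, as a share of the group's range, exceeded Dixon's 95% critical value. Of 209 sets of values, each 1 gene in 1 group, 21 held such a library. The critical value flags about 1 in 20 sets of normally distributed values. Since the same libraries recur over genes that vary together, the 21 cannot be set against that rate.

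In liver, wild-type replicate 2 of the S226A litters was far above its group for Col4a6 (7.623 CPM), Col8a1 (3.023 CPM) and Col3a1 (616.6 CPM), and Y130A replicate 1 for Col4a5 (22.81 CPM) and Col4a6 (6.315 CPM). Both are the livers with squamous transcripts. In the wild-type livers of the Y130A litters, replicate 1 stood apart for Col5a2 (189.4 CPM) and Col1a1 (317 CPM), replicate 2 for Col24a1 (9.855 CPM) and replicate 3 for Col4a4 (8.555 CPM). Y130A liver replicate 2 stood apart for Col4a4 (5.612 CPM).

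In brain, the library with osteoblast markers, wild-type replicate 2 of the S226A litters, was far above its group for Col1a1 (365.3 CPM), Col1a2 (383.4 CPM) and Col6a1 (46.73 CPM). Wild-type replicate 3 of the S226A litters stood apart for Col8a1 (10.17 CPM), Y130A replicate 1 for Col4a3 (1.594 CPM) and S226A replicate 3, at the low end, for Col17a1 (0.2927 CPM).

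In lung, S226A replicate 2 was far below its group for Col4a1 (2655 CPM) and Col4a3 (139.7 CPM), and S226A replicate 3 stood apart for Col24a1 (25.98 CPM) and Col1a2 (1586 CPM). Wild-type replicate 4 of the S226A litters stood apart for Col1a2 (1772 CPM).

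The effects of the alleles differed for Col4a5 in liver, by -1.3772 on the log2 scale in the interaction term of edgeR (adjusted p = 0.00352), with 1 of the livers with squamous transcripts among the wild-type controls of S226A and the other among the Y130A mutants.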

How the results depend on the processing

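The shares in parentheses are of all genes called in the same fit. The 5 collagens called in S226A liver (11.7%) became 10 with DESeq2 (15.2%), 3 higher and 7 lower, 3 with only the libraries compared (8.28%), 1 by the stricter criteria (2.1%), and 3 to 7 when single libraries were left out (9.56% to 11.1%), with the lowest count without S226A replicate 1. In S226A lung that range was 0 to 1, and it was 0 to 0 for S226A brain and the 3 Y130A comparisons. Blocking on litter, which pairs littermates, gave 8 collagens in S226A liver with litter and tissue as the replicate block over all libraries (13.2%) and 2 for the difference between alleles in liver (7.11%); with the block in the libraries compared, Col24a1 (adjusted p = 0.0615), Col8a2 (0.203) and Col17a1 (0.107) lost their calls.

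The single collagen that differed between alleles in liver (5.9%) became 5 with DESeq2 (8.74%), 2 with DESeq2's kind of size factors (RLE, 6.23%), 0 with only the libraries of the tissue (3.48%), 2 (both higher) without the livers with squamous transcripts (4.97%), an alternative chosen after seeing the data, and 1 to 3 without single libraries (4.59% to 6.08%). Between wild-type sets, the 5 in liver (13.1%) became 3 without a filter (8.85%), 0 with only the libraries compared (3.65%), 8 without the livers with squamous transcripts (14.6%) and 1 to 7 without single libraries (6.97% to 17.1%). The 6 in lung (20.1%) became 2 with only the libraries compared (1.81%) and 1 to 7 without single libraries (13.4% to 24.9%). The 2 in brain (5.98%) became 10 with only the libraries compared (24.8%) and 0 to 3 without single libraries (1.99% to 4.98%). The cause of these changes was not tested. Tissue counts stayed within 33 to 35, 33 to 35 and 40 to 41 without single libraries.

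Summed over all collagens, wild-type levels of 573 CPM per kilobase in liver, 2050 in lung and 210.4 in brain became 737.23, 2690.7 and 286.47 with the longest transcript as length. Without TMM scaling they were 433.28 in liver and 2400.3 in lung. Low collagens, such as Col17a1 and Col8a1 in liver, rest on few reads per library, so that differences there may not be detectable at this depth.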
